A study of Homo sapiens with 10 samples.

Results

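Messenger RNA levels were compared between heat-shocked U2OS cells with YTHDC1 knocked down and heat-shocked U2OS cells that received a control reagent, across all genes. U2OS is a human osteosarcoma line, grown here in DMEM with fetal bovine serum at 37 °C. The comparison uses 4 of the 10 samples of the series, chosen by their labels, with 2 libraries in each group. A further 2 libraries, from unheated cells with the control reagent, entered the fit for the estimate of spread, and 4 methylated RNA immunoprecipitation samples were not analysed here. The values below are of RNA levels and none is of methylation. Titles abbreviate the reagents as sh and descriptions as si. The sources used here name neither the number of reagent sequences nor how hot and how long the heat shock was, or whether cells recovered after it. Both groups compared were heated, and the effect of the knockdown without heat was not measured in these libraries. Whether the 2 libraries of a group stem from different cultures is not stated, and the p-values therefore rest on a spread between samples that may be technical.

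YTHDC1 is a nuclear protein that binds N6-methyladenosine (m6A), a methylated base in RNA. It is known to recruit SR splicing proteins, to take part in the export of methylated messenger RNA and to bind nuclear noncoding RNAs. Heat shock activates the factor HSF1, which drives chaperone genes while much other transcription is lowered. The study's stated interest was in genes of non-homologous end joining, which rejoins broken DNA ends.

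The 4 heat-shocked libraries held between 13252370 and 14497486 counts. Levels are given as CPM, the count of a gene relative to the library's total count, and are not divided by gene length. Fold changes are log2, knockdown minus heat-shocked control, with the standard error (SE). A gene is called higher or lower where the adjusted p of edgeR's quasi-likelihood test, by Benjamini-Hochberg over 17290 tested genes, is under 0.05. The knockdown differed in 54.5% of tested genes, 4729 of them higher (27.4%) and 4696 lower (27.2%). A call with a change of at least 2-fold was made for 12.7% of genes, 1058 higher and 1139 lower. The median over all tested genes was -0.004, with quartiles at -0.37 and 0.37. The TMM scaling centres the fold changes, and with library size alone 4908 genes were called higher and 4548 lower. In 75.9% of tested genes the 2 knockdown libraries lay both above or both below the 2 control libraries, and in 81.9% of those with a mean of at least 5 CPM. Counts of lists below are to be read against these shares. For genes named below because of a large called change, such separation follows largely from that choice and is no added evidence. In bulk RNA, fewer cells of a type and less RNA per cell cannot be told apart.

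YTHDC1 itself (ENSG00000083896, chromosome 4, 68310387 to 68350090, RefSeq positions on GRCh38.p14 here and below) stood at 268 and 258 CPM in the controls and at 121 and 118 CPM with the knockdown reagent. The groups did not overlap, and the knockdown libraries lay also under the 213 and 225 CPM of the unheated controls. The log2 fold change was -1.14 ± 0.05 (SE, n = 2 per group, edgeR adjusted p = 2.66e-15), and the level left was 0.454 of that in the controls. It was called lower in all 15 alternative settings run.

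**Figure D1:**
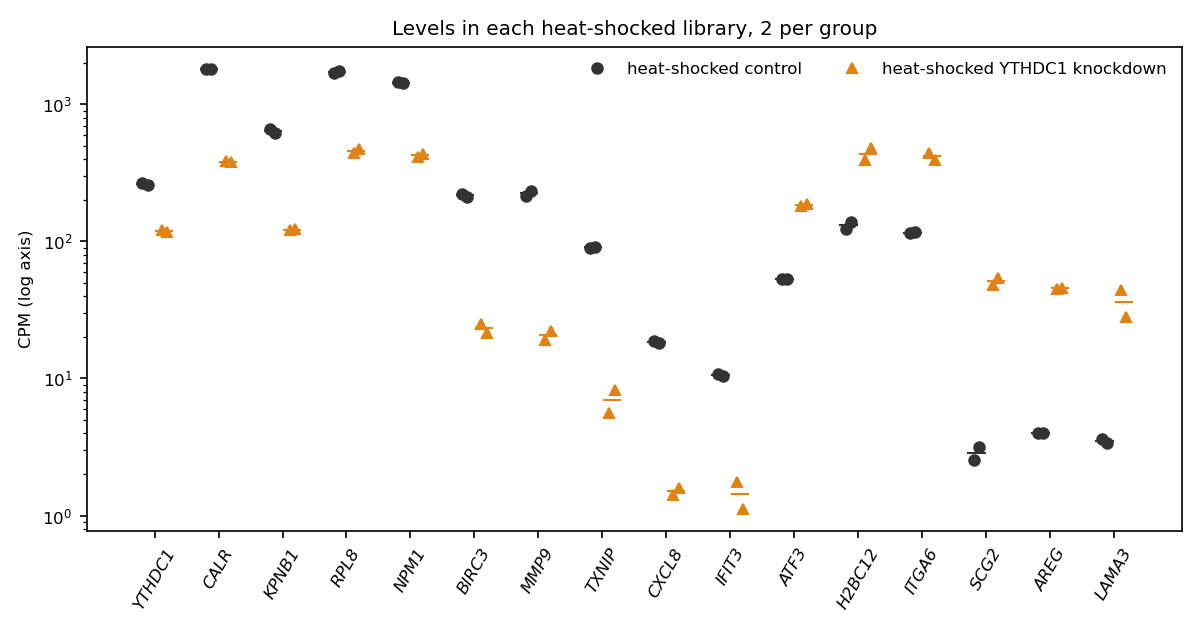
CPM (log axis) of 16 genes in each heat-shocked library; dots are control libraries, triangles knockdown libraries, and short lines the group means. In each gene shown the 2 groups are apart, as for CALR with 1809 and 1803 CPM in the controls and 386 and 379 CPM in the knockdown.

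Several genes with very many reads fell by more than YTHDC1 did. A direct action of the knockdown reagent on their transcripts was not tested. CALR, the calcium-binding chaperone calreticulin of the endoplasmic reticulum (ENSG00000179218, chromosome 19, 12938609 to 12944489), stood at 1809 and 1803 CPM in the controls, against 386 and 379 CPM with YTHDC1 knocked down. The change was -2.24 ± 0.05, or 4.72-fold lower (edgeR adjusted p = 2.52e-21). KPNB1, importin beta, which carries cargo through nuclear pores (ENSG00000108424, chromosome 17, 47649919 to 47685505), went from 661 and 622 CPM to 121 and 123 CPM. Its change was -2.39 ± 0.05, or 5.26-fold lower (edgeR adjusted p = 2.52e-21). NPM1, the nucleolar histone chaperone nucleophosmin (ENSG00000181163, chromosome 5, 171387116 to 171410900), went from 1445 and 1427 CPM to 414 and 435 CPM, a change of -1.76 ± 0.05. In each of these genes the libraries within a group lay close together and the groups far apart. In control cells heat shock had left them near their unheated level, with log2 changes of 0.03 for CALR, -0.11 for KPNB1 and 0.01 for NPM1. The heat comparison uses the same heat-shocked control libraries as the knockdown comparison.

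Ribosomal protein genes were a contrast within a family. Of 78 tested, 13 were called higher (8 by DESeq2), 15 lower and 50 not called, with a median log2 fold change of 0.00. RPL31 (ENSG00000071082, chromosome 2, 101002289 to 101019724), a protein of the large subunit, went from 1173 and 1016 CPM to 281 and 282 CPM. RPL8, also of the large subunit, went from 1683 and 1757 CPM to 442 and 469 CPM. Both fell in both knockdown libraries, by 1.96 ± 0.06 and 1.92 ± 0.05 on the log2 scale (edgeR adjusted p = 7.63e-18 and 2.21e-19). The other 76 lay between -0.64, for RPL38, and 0.50, for RPL13A. Of 4 tested pseudogenes of NPM1, 3 were called lower and NPM1P32, of few reads, was not (-0.24 ± 0.56). NPM1P27, a pseudogene of NPM1, went from 99.4 and 105 CPM to 31.5 and 29.5 CPM (-1.74 ± 0.06), and RPL8P3 from 6.23 and 4.09 CPM to 0.704 and 0.974 CPM (-2.60 ± 0.30). The treatment of reads that fit several places is not given in the sources used here, so counts of near-identical copies are uncertain. Over the 616 tested genes of the RefSeq class pseudogene 5.03% were called higher and 16.1% lower. Of a further 202 classed as transcribed pseudogenes 12.4% were called higher and 17.3% lower.

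**Figure D2:**
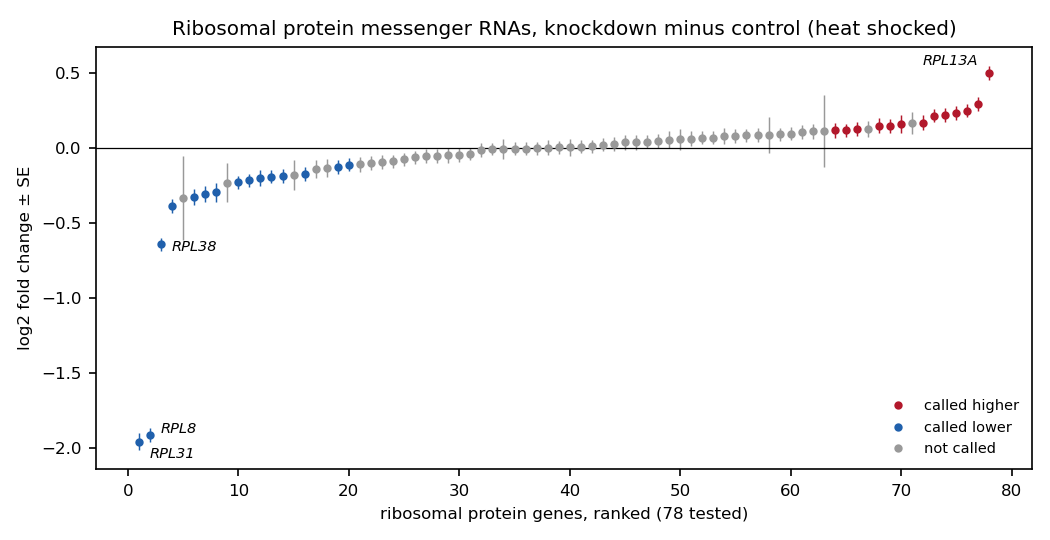
Log2 fold change ± SE of the 78 tested ribosomal protein genes, ranked, knockdown minus control in heat-shocked cells; red is called higher, blue called lower and grey not called. RPL31 and RPL8 lie at -1.96 and -1.92, apart from RPL38 at -0.64 and the rest.

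Some proteins that carry histones are described beside NPM1. They were chosen after their values were seen, so their directions say nothing of histone chaperones as a group, and others differed, such as NAP1L1 (0.37 ± 0.04, called higher) and RBBP4 (0.00 ± 0.05, not called). NPM1, ANP32A, ANP32B, ANP32E and SET are acidic histone chaperones or relatives of them, and SSRP1 and SUPT16H make up FACT, which takes histones off and back onto DNA during transcription. ANP32E, a chaperone of the variant histone H2A.Z, went from 160 and 148 CPM to 56.2 and 54.1 CPM (-1.48 ± 0.06). ANP32A went from 289 and 271 CPM to 140 and 143 CPM (-0.98 ± 0.05), and SSRP1 from 741 and 725 CPM to 348 and 336 CPM (-1.10 ± 0.04). The groups were apart in each of these genes. SUPT16H fell by 0.62 ± 0.05, SET by 0.49 ± 0.05 and ANP32B by 0.23 ± 0.06. NPM3, a relative of NPM1, rose by 0.34 ± 0.05.

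Histone genes themselves went mostly the other way. Of 56 replication-dependent histone genes listed, 17 passed the filter on low counts, 9 were called higher and 2 lower, and their median log2 fold change was 0.85. H2BC12, a core histone H2B gene (ENSG00000197903, chromosome 6, 27138293 to 27146858), went from 122 and 139 CPM to 395 and 478 CPM (1.74 ± 0.11, edgeR adjusted p = 1.76e-05). H2BC11 went from 7.69 and 8.96 CPM to 26.2 and 32.6 CPM (1.82 ± 0.13), and H2BC4 from 3.92 and 4.80 CPM to 14.4 and 15.9 CPM (1.79 ± 0.15). In these H2B genes every knockdown library was above every control library. H2AC6, an H2A gene, fell by 0.96 ± 0.10. The other 39 listed histone genes had too few reads to be tested, so the 17 do not stand for the family. With no filter on low counts the median was 0.38, and leaving out heat-shocked control replicate 2 it was 0.54.

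**Figure D3:**
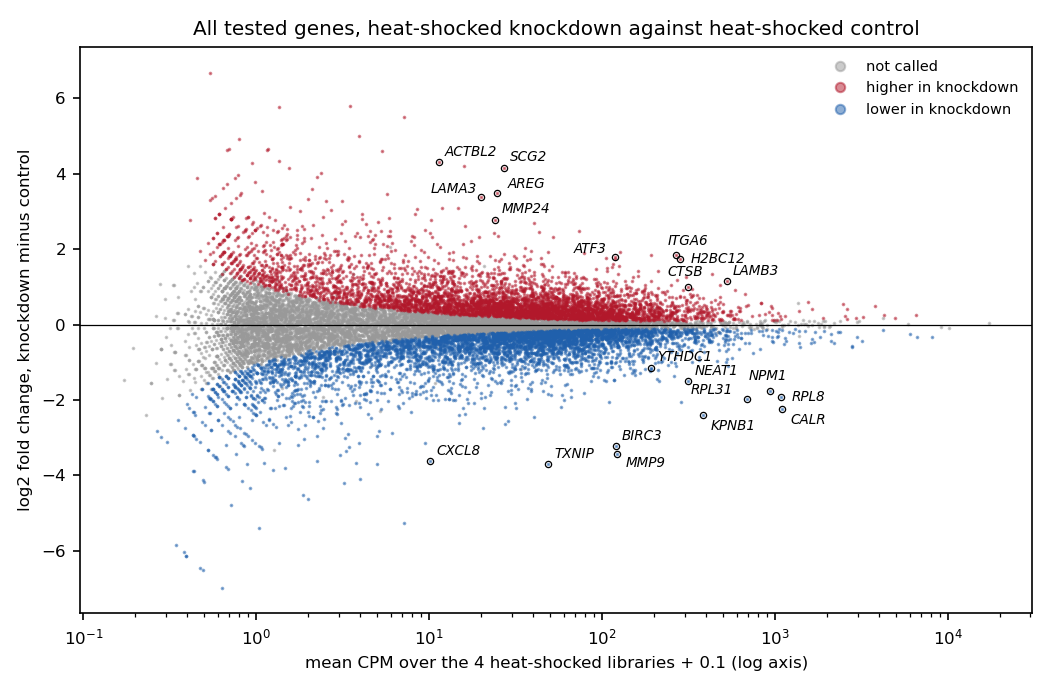
Log2 fold change, knockdown minus control, against the mean CPM of the 4 heat-shocked libraries plus 0.1 (log axis) for all 17290 tested genes; red is called higher, blue called lower and grey not called. Calls lie on both sides of 0 at all levels, and CALR, RPL8, RPL31 and NPM1 stand below the other genes of like CPM.

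The largest falls, among protein-coding genes whose mean was 10 CPM or more, held TXNIP, secreted inflammatory factors and a secreted protease. TXNIP, which binds thioredoxin and restrains glucose uptake (ENSG00000265972, chromosome 1, 145992435 to 145996579), went from 89.1 and 91.5 CPM to 5.56 and 8.28 CPM (-3.70 ± 0.10, 13-fold lower, edgeR adjusted p = 1.06e-18). Its relative ARRDC4 fell by 1.45 ± 0.12. MMP9, a secreted gelatinase (ENSG00000100985, chromosome 20, 46008908 to 46016561), went from 215 and 232 CPM to 18.9 and 22.3 CPM (-3.44 ± 0.07). PIK3IP1, an inhibitor of phosphoinositide 3-kinase, went from 36.8 and 34.3 CPM to 5.91 and 4.80 CPM (-2.73 ± 0.12). COPRS, which brings the methyltransferase PRMT5 to histones, went from 46.6 and 47.5 CPM to 7.25 and 7.86 CPM (-2.64 ± 0.10). The lowest control library was more than the highest knockdown library in each. KCNA2, a potassium channel, LRRCC1, a centrosomal protein, CYTL1, PMM1 and NHERF1 were the others of this group outside the lists below, with changes from -2.62 to -2.21.

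The largest rises held growth factors, a laminin chain and genes of the cytoskeleton. ACTBL2, an actin family gene, went from 0.692 and 1.43 CPM to 20.3 and 22.7 CPM (4.31 ± 0.22, edgeR adjusted p = 6.15e-14). SCG2, a granin of secretory vesicles (ENSG00000171951, chromosome 2, 223596940 to 223602361), went from 2.54 and 3.15 CPM to 47.9 and 54.4 CPM (4.16 ± 0.13). AREG, the EGF receptor ligand amphiregulin (ENSG00000109321, chromosome 4, 74445136 to 74455005), went from 4.0 and 4.01 CPM to 45.0 and 45.9 CPM (3.50 ± 0.12). No knockdown library overlapped a control library in these genes. FGF1, a fibroblast growth factor, rose by 2.45 ± 0.16, LTBP1, which stores latent TGF-beta in the matrix, by 2.48 ± 0.09, and MMP24, a membrane-bound metalloproteinase, by 2.78 ± 0.11. CHST14, a sulfotransferase of dermatan sulfate, rose by 2.76 ± 0.16, XIRP1, an actin-binding protein, by 2.61 ± 0.13 and GEM, a small GTPase, by 2.43 ± 0.14. Of 14 tested EGF family ligands and receptors 5 were called higher and 6 lower, with a median of 0.09. AREG, EREG (1.51 ± 0.17), EGF (0.50 ± 0.21) and EGFR (0.62 ± 0.07) were among the higher, and HBEGF (-0.37 ± 0.10) and ERRFI1, an inhibitor of EGFR (-0.65 ± 0.05), among the lower. With either heat-shocked control library left out, 3 genes of the list were called higher.

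The laminin chain LAMA3 rose together with its partner chain LAMB3 and with both chains of a laminin receptor. Integrin alpha6 beta4, from ITGA6 and ITGB4, binds laminin of the basement membrane. LAMA3 (ENSG00000053747, chromosome 18, 23689453 to 23955066) went from 3.62 and 3.37 CPM to 44.2 and 28.3 CPM (3.37 ± 0.29, edgeR adjusted p = 8.84e-05). LAMB3 went from 321 and 330 CPM to 778 and 677 CPM (1.16 ± 0.05). ITGA6 (ENSG00000091409, chromosome 2, 172427336 to 172506459) went from 115 and 117 CPM to 443 and 391 CPM (1.85 ± 0.06), with the groups well apart. ITGB4 went from 3.23 and 3.51 CPM to 8.65 and 12.6 CPM (1.65 ± 0.19). Of the knockdown libraries, replicate 1 was the higher for LAMA3 and LAMB3. Of all 26 tested laminin and integrin genes 10 were called higher and 12 lower, with a median of -0.19, which was -0.02 without knockdown replicate 2. Among those lower were ITGA2 (-1.32 ± 0.07) and ITGA3 (-0.70 ± 0.05), receptors for collagen and laminin, and ITGAV (-0.99 ± 0.05), which pairs with several beta chains.

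**Figure D4:**
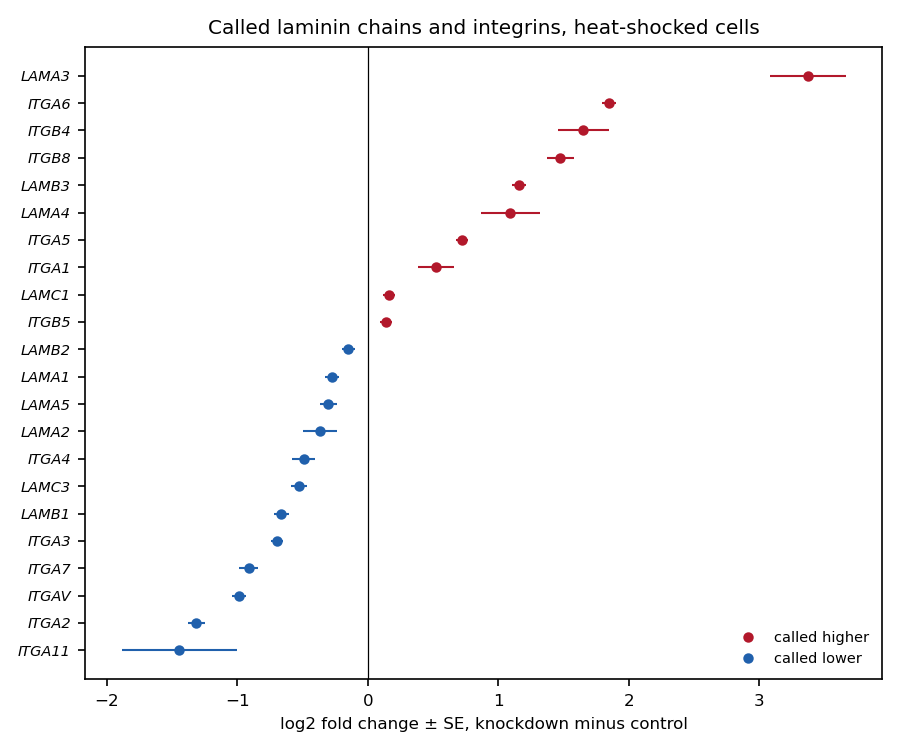
Log2 fold change ± SE of the 22 laminin and integrin genes that were called, of 26 tested, knockdown minus control in heat-shocked cells, ranked; red is called higher and blue called lower. LAMA3, ITGA6 and ITGB4 lead at 3.37, 1.85 and 1.65, and ITGA2 at -1.32 is among the lowest.

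Other matrix and contractile genes also split. Of 22 collagen genes tested 9 were called higher and 5 lower (median 0.20), led by COL8A1 (2.31 ± 0.15), COL5A3 (1.77 ± 0.11) and COL3A1 (1.04 ± 0.09). Without knockdown replicate 1 that median was 0.0009, and DESeq2 called 3 lower. Of 30 YAP targets and contractile genes 13 were higher and 14 lower (median 0.03, and -0.02 without knockdown replicate 1). ACTA2, smooth muscle actin, went from 2.31 and 3.23 CPM to 15.3 and 16.4 CPM (2.51 ± 0.18). CNN1, calponin, went from 18.5 and 16.3 CPM to 86.6 and 87.0 CPM (2.32 ± 0.08). ANKRD1, a YAP target, rose by 1.34 ± 0.09, and the groups did not overlap in these genes. TPM1, a tropomyosin, fell by 1.00 ± 0.06 and MYH9, non-muscle myosin, by 0.58 ± 0.05. Of 23 metalloproteinase and inhibitor genes 9 were higher and 11 lower, or 7 lower with genes under 5 CPM left out (median 0.18, and -0.07 without heat-shocked control replicate 2). Besides MMP9, MMP2 (-0.98 ± 0.06) and PLAU (-0.93 ± 0.10) fell. FN1, fibronectin, was not called (0.57 ± 0.18, edgeR adjusted p = 0.0792), at 1081 and 1104 CPM in the controls and 1862 and 1374 CPM in the knockdown.

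Inflammatory genes were lower in the knockdown. Of 23 tested NF-kB subunits and feedback genes 15 were called lower and 2 higher, with a median of -0.30, and of 22 tested chemokine and cytokine genes 11 were lower and 5 higher, with a median of -0.78. BIRC3, an apoptosis inhibitor and NF-kB target (ENSG00000023445, chromosome 11, 102317484 to 102339403), went from 222 and 210 CPM to 25.1 and 21.4 CPM (-3.21 ± 0.07, edgeR adjusted p = 2.52e-21). TRAF1 went from 27.2 and 26.7 CPM to 5.63 and 4.87 CPM (-2.36 ± 0.12), and NFKBIA, the inhibitor IkappaB-alpha, from 57.2 and 59.3 CPM to 18.9 and 21.9 CPM (-1.52 ± 0.08). The subunit genes themselves moved less. RELA stood at 79.0 and 77.1 CPM in the controls and 74.2 and 81.5 CPM in the knockdown and was not called, while NFKB1 fell by 0.42 ± 0.05, NFKB2 by 0.29 ± 0.05 and RELB by 0.21 ± 0.07. CXCL8, interleukin 8, went from 18.8 and 18.3 CPM to 1.41 and 1.6 CPM (-3.62 ± 0.17). CCL2, a monocyte chemokine, went from 67.5 and 69.2 CPM to 14.1 and 10.8 CPM (-2.46 ± 0.09), and IL32 from 190 and 191 CPM to 78.8 and 71.5 CPM (-1.35 ± 0.05). Of the 5 called higher, IL11 rose from 14.6 and 13.5 CPM to 67.5 and 47.7 CPM (2.04 ± 0.20, edgeR adjusted p = 2.32e-04). CX3CL1 (0.72 ± 0.13), PTGS2 (0.63 ± 0.17), IL24 and IL18 (0.51 ± 0.06) were the others, and DESeq2 called 3 higher. With genes under 5 CPM left out, the chemokine list held 3 called higher and 4 lower, and its median was -0.22. Without knockdown replicate 2 that median was -1.27, and the NF-kB list then held 1 gene called higher, as it did without heat-shocked control replicate 1.

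Interferon-stimulated genes were lower as a list. Of 44 tested, 32 were called lower and 2 higher, 21 of them at least 2-fold lower, and the median log2 fold change was -0.94. With genes under 5 CPM left out, 21 were called lower. IFIT3, an antiviral protein (ENSG00000119917, chromosome 10), went from 10.8 and 10.5 CPM to 1.76 and 1.11 CPM (-2.88 ± 0.20). UBE2L6, the conjugating enzyme for ISG15, went from 31.5 and 33.6 CPM to 11.4 and 10.2 CPM (-1.59 ± 0.10). IRF1, a transcription factor of this response, went from 50.4 and 48.2 CPM to 19.4 and 18.4 CPM (-1.38 ± 0.08). In all 3 genes the knockdown libraries lay under the controls. STAT2 fell by 0.47 ± 0.06, whereas IRF9, its DNA-binding partner, was not called (0.07 ± 0.24), at 3.08 and 3.30 CPM against 2.88 and 3.83 CPM. MX1 (-0.21 ± 0.33) and IFI27 (-0.26 ± 0.32), both of few reads, were not called either. The called rises were of ISG20, a nuclease (0.57 ± 0.15), and TRIM21, an antibody receptor in the cytosol (0.50 ± 0.10). Without knockdown replicate 1 only 1 of them was called.

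MHC class I antigen presentation shares regulators with that response, and 14 of its 21 tested genes were called lower against 2 higher, with a median of -0.30. CALR, described above, is a member of the peptide-loading complex. PSMB9, a subunit of the immunoproteasome (ENSG00000240065, chromosome 6, 32854192 to 32859851), went from 25.9 and 26.7 CPM to 6.82 and 6.68 CPM (-1.96 ± 0.11). TAPBP, tapasin, which holds class I molecules at the peptide transporter, went from 115 and 127 CPM to 56.2 and 53.5 CPM (-1.14 ± 0.06). The class I genes changed little beside these, with HLA-C at -0.40 ± 0.05, B2M at -0.37 ± 0.05 and HLA-B at -0.17 ± 0.05. HLA-F was called higher (0.67 ± 0.14). Among acute-phase and complement genes 10 of 17 tested were lower and 6 higher, or 3 higher with genes under 5 CPM left out. SAA2 went from 3.92 and 3.37 CPM to 0.211 and 0.0696 CPM, which is very few reads in the knockdown libraries. C1R fell by 1.06 ± 0.10 and C3 by 0.80 ± 0.12, while CD55 (1.29 ± 0.08) and CD59 (1.02 ± 0.06), which shield cells from complement, rose.

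Promoters of 4 called genes from these lists are shown, to set beside their values letters that match the patterns of known factors. They are the largest changes among called members with a mean of at least 5 CPM and a match in the window from 250 bases before to 50 after the start, from RefSeq on GRCh38.p14. Capitals mark exact matches, on either strand, to the kappaB consensus, to the interferon response element GAAANNGAA or to the AP-1 site TGANTCA. A stretch that departs from these patterns is left in lower case, so letters without capitals may still hold sites. CXCL8 (chr4:73740319-73740618, plus strand) and IL11 (chr19:55370414-55370713, minus strand) hold an AP-1 match, BIRC3 (chr11:102317234-102317533, plus strand) holds 2 kappaB matches, and IFIT3 (chr10:89327747-89328046, plus strand) holds 2 interferon element matches.
CXCL8: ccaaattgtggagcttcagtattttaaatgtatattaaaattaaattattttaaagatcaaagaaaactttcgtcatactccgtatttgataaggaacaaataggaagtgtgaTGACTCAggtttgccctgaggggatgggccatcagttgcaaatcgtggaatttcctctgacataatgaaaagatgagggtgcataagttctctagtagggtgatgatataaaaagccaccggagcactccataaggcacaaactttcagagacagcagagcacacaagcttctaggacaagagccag
BIRC3: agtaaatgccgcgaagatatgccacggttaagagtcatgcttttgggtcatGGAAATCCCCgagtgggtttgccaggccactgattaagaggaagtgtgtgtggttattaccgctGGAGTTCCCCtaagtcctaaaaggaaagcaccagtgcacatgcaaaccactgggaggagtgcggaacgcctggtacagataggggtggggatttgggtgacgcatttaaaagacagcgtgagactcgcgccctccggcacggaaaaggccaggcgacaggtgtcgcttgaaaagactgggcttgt
IFIT3: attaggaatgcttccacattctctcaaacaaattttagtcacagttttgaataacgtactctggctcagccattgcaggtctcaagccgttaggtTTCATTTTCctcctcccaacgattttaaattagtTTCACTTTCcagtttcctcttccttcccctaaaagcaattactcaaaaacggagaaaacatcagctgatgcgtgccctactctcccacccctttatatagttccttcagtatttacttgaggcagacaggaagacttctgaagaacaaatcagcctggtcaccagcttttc
IL11: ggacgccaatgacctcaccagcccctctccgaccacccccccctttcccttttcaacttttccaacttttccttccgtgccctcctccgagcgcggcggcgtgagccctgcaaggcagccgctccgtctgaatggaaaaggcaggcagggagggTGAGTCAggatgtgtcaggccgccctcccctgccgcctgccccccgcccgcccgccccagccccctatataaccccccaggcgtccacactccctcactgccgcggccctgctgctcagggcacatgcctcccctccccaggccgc

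The interferon element was in 8.29% of all 27326 promoters of the RefSeq table and in 6.33% of the 11845 matched to tested genes. Of 36 promoters of tested interferon-stimulated genes 22 held it. Of the 24 whose genes were called lower 14 held the element, as did the 2 whose genes were called higher. It was in 8.06% of promoters of genes called at least 2-fold lower and in 4.77% of those at least 2-fold higher. The kappaB consensus was in 5.74% of all promoters and 6.77% of those of tested genes, in 8.94% of promoters at least 2-fold lower and 6.41% of those at least 2-fold higher. In promoters of the NF-kB list it was in 7 of 20 tested, in 5 of the 12 called lower and in 1 of the 2 called higher. The AP-1 site was in 7.77% of all promoters and 5.14% of those of tested genes, and in 8.5% of those at least 2-fold lower and 8.2% of those at least 2-fold higher. The cyclic AMP element TGACGTCA, which as spelled cannot overlap an AP-1 match, was in 1.98% of all promoters, 3.17% of those of tested genes, 1.91% of those lower and 4.47% of those higher. A match describes these windows and is not a site shown to be bound.

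**Figure D5:**
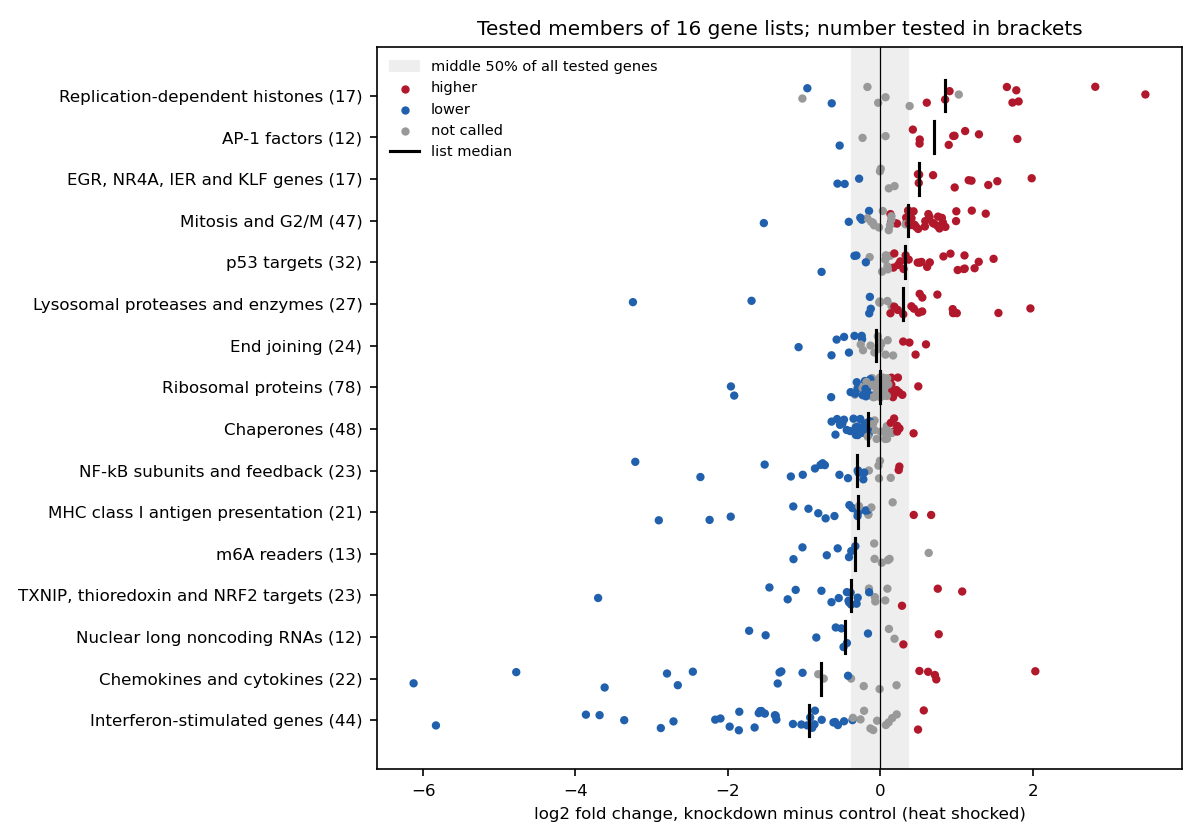
Log2 fold change of each tested member of 16 gene lists, knockdown minus control in heat-shocked cells; red is called higher, blue called lower and grey not called, the black line is the list median, and the grey band holds the middle 50% of all tested genes. The medians of interferon-stimulated genes, -0.94, and chemokines and cytokines, -0.78, lie at one end and those of AP-1 factors, 0.71, and replication-dependent histones, 0.85, at the other.

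Immediate early factors were higher. Of 12 tested AP-1 factors 9 were called higher and 1 lower, with a median of 0.71, and of 17 EGR, NR4A, IER and KLF genes 10 were higher and 3 lower, with a median of 0.51. ATF3, a stress-induced AP-1 partner, went from 53.2 and 53.1 CPM to 182 and 189 CPM (1.80 ± 0.05). FOS went from 65.8 and 68.2 CPM to 139 and 151 CPM (1.11 ± 0.06), and FOSL1 rose by 0.96 ± 0.07. KLF5, a zinc finger factor of epithelia, went from 56.1 and 56.0 CPM to 121 and 136 CPM (1.20 ± 0.06), and EGR1 rose by 0.98 ± 0.05. The groups were apart in each. JUNB fell by 0.53 ± 0.06 and SRF, which drives many of these genes, by 0.56 ± 0.06.

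The list of TXNIP, thioredoxin and NRF2 target genes was mostly lower. Of 23 tested 15 were called lower and 3 higher, with a median of -0.38. Those lower include TXNIP and ARRDC4, described above, so the count is not one of antioxidant genes alone. NQO1, a quinone reductase, went from 137 and 135 CPM to 56.6 and 60.7 CPM (-1.21 ± 0.05). TXNRD1 (-0.77 ± 0.05), PRDX1 (-0.64 ± 0.04) and the factor NFE2L2, or NRF2, itself (-0.54 ± 0.05) fell. KEAP1, which targets NRF2 for degradation, rose by 0.76 ± 0.08 and OSGIN1 by 1.08 ± 0.13. In a separate list of metallothioneins and zinc transporters, 3 of 9 tested genes were called higher and 2 lower, with a median of 0.04. MT2A, a metallothionein, went from 171 and 174 CPM to 58.0 and 67.1 CPM (-1.46 ± 0.06), while SLC30A1, a zinc exporter, rose by 1.12 ± 0.06.

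Lysosomal genes were higher. Of 27 tested 17 were called higher and 5 lower, with a median of 0.30. TFEB, a transcription factor of lysosomal genes (ENSG00000112561, chromosome 6, 41683978 to 41736223), went from 3.31 and 3.87 CPM to 13.2 and 15.1 CPM (1.97 ± 0.16), whereas its relative MITF was not called (0.06 ± 0.08). CTSV went from 24.7 and 21.9 CPM to 76.5 and 60.1 CPM (1.55 ± 0.12) and CTSB from 211 and 210 CPM to 443 and 400 CPM (1.00 ± 0.05), both cathepsin proteases. LIPA, the lysosomal acid lipase, rose by 0.96 and CTSH by 0.95. CTSS, a cathepsin known from antigen-presenting cells, fell from 5.92 and 6.16 CPM to 0.352 and 0.905 CPM (-3.25 ± 0.29). Besides CTSS and CTSO (-1.69 ± 0.51) the genes called lower, CTSA, LAMP2 and TFE3, were between -0.14 and -0.12. Without heat-shocked control replicate 2, 1 gene was called lower, and without knockdown replicate 2, 2 were. Leaving out knockdown replicate 1 or either unheated library left 3.

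Stress pathways of translation and the endoplasmic reticulum moved in both directions. Of 30 tested integrated stress response genes 14 were called higher and 8 lower (median 0.11). PPP1R15A, a phosphatase subunit that restores translation, went from 111 and 116 CPM to 299 and 313 CPM (1.43 ± 0.05), PCK2 rose by 1.6 ± 0.07 and AARS1 by 0.91 ± 0.04. DDIT4, an inhibitor of mTOR, went from 157 and 143 CPM to 51.9 and 57.4 CPM (-1.46 ± 0.06), and CHAC1, a glutathione-degrading enzyme, fell by 1.23 ± 0.09. Of 26 endoplasmic reticulum folding genes 12 were higher and 8 lower (median 0.10). CRELD2 (0.95 ± 0.06) and SDF2L1 (0.91 ± 0.07) rose, while HERPUD1 (-0.58 ± 0.06) and DNAJB9 (-0.57 ± 0.10) fell. CALR, at -2.24, was the only 1 of these folding genes called at least 2-fold lower. In cholesterol synthesis 11 of 26 were higher and 8 lower, with SQLE at -1.04 ± 0.05 and INSIG1 at 1.13 ± 0.07.

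Heat shock genes changed by small amounts. Of 48 tested chaperones 27 were called lower and 7 higher, 0 of them at least 2-fold, with a median of -0.16. HSPH1, an HSP110 protein, went from 3402 and 3320 CPM to 2308 and 2166 CPM (-0.59 ± 0.05). CCT4, a subunit of the chaperonin of actin and tubulin, went from 598 and 601 CPM to 422 and 410 CPM (-0.53 ± 0.04). CCT5, another subunit of that chaperonin, was called higher (0.25 ± 0.04). HSPA6, the most heat-inducible HSP70, was at 0.01 ± 0.05 and was not called (edgeR adjusted p = 0.935). HSPB1 fell by 0.44 ± 0.04 and DNAJB1 rose by 0.18 ± 0.04. Of 21 heat shock factors and other HSF1 targets 11 were higher and 4 lower (median 0.17), with TCEA1, an elongation factor, at 0.83 ± 0.06, HSF2 at 0.69 ± 0.12 and SLC5A3 at -0.68 ± 0.04.

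End joining genes, the stated interest, were near the background. Of 24 tested 8 were called lower (33.3%) and 4 higher (16.7%), and the median was -0.05, or -0.16 without knockdown replicate 1. TP53BP1, which shields broken ends from resection (ENSG00000067369, chromosome 15, 43403061 to 43510640), went from 128 and 128 CPM to 62.1 and 59.4 CPM (-1.07 ± 0.06, edgeR adjusted p = 6.54e-14). It was the only member changed at least 2-fold. CYREN, a regulator of pathway choice, went from 28.4 and 30 CPM to 21.3 and 18 CPM (-0.57 ± 0.09), and XRCC5, the larger Ku subunit, from 664 and 646 CPM to 557 and 550 CPM (-0.24 ± 0.04). XRCC6, the smaller Ku subunit, at 856 and 794 CPM against 822 and 803 CPM, was not called (-0.02 ± 0.05), and neither were LIG4 (-0.01 ± 0.08) and PRKDC (-0.01 ± 0.04). The calls of 2 members depended on settings. APLF, at 5.54 and 5.59 CPM against 4.22 and 2.92 CPM, had a DESeq2 Wald adjusted p of 0.0909, and 0.165 by edgeR without knockdown replicate 2. NHEJ1 had a DESeq2 adjusted p of 0.0713, and 0.138 by edgeR without knockdown replicate 1.

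Recombination and replication genes moved in both directions, while mitosis genes and p53 targets were mostly higher. Of 38 homologous recombination and Fanconi genes 12 were higher and 10 lower (median 0.04, and -0.01 without heat-shocked control replicate 2), and DESeq2 called 7 higher. BRCA2, a mediator of recombination, went from 40.3 and 41.6 CPM to 79.6 and 83.6 CPM (0.99 ± 0.06). Of 40 replication and G1/S genes 13 were higher and 12 lower (median 0.04). PCNA, the replication clamp, went from 78.7 and 72.9 CPM to 22.0 and 20.6 CPM (-1.83 ± 0.07), and RRM2, a subunit of ribonucleotide reductase, from 160 and 165 CPM to 321 and 358 CPM (1.06 ± 0.05). UHRF1, which maintains DNA methylation, fell by 1.16 ± 0.06. In mitosis and G2/M 31 of 47 tested genes were higher and 5 lower, with a median of 0.37. CCNF, cyclin F, went from 34.6 and 35.2 CPM to 85.2 and 97.1 CPM (1.39 ± 0.07), CENPA, the centromeric histone H3 variant, rose by 1.20 ± 0.09, and AURKA, a spindle kinase, fell from 72.6 and 65.5 CPM to 23.4 and 24.4 CPM (-1.53 ± 0.08). Without knockdown replicate 2, 8 genes of that list were called lower. Of 32 p53 targets 21 were higher and 4 lower, or 2 lower by DESeq2 (median 0.32), with XPC, a damage sensor, going from 49.5 and 48.0 CPM to 134 and 139 CPM (1.49 ± 0.06).

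Among genes of the m6A pathway, no reader was called higher and several were lower. Of 13 readers tested, YTHDC1 included, 7 were called lower and 0 higher (median -0.33), though 1 was called higher with library size as the scaling, as it was with control replicate 1 of the heat-shocked group or knockdown replicate 1 left out. IGF2BP1, which stabilises methylated messages, went from 10.6 and 11.1 CPM to 5.49 and 5.22 CPM (-1.02 ± 0.15), FMR1 fell by 0.70 ± 0.07 and YTHDF3 by 0.56 ± 0.06. YTHDF1 (0.02 ± 0.05), YTHDF2 (-0.07 ± 0.06) and YTHDC2 (0.12 ± 0.07) were not called. Of 14 writers and erasers 4 were higher and 5 lower (median -0.10). METTL3, the catalytic subunit, stood at 57.2 and 52.1 CPM against 60.8 and 58.5 CPM (0.13 ± 0.07, not called), and METTL14 and WTAP were not called. RBM15B, which guides the writer, rose by 0.78 ± 0.06 and the eraser ALKBH5 fell by 0.68 ± 0.06.

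RNA processing genes showed falls in several families. Of 22 hnRNP genes 11 were lower and 4 higher (median -0.17). PTBP3, a splicing repressor, went from 82.4 and 85.1 CPM to 36.3 and 40.4 CPM (-1.13 ± 0.06), and HNRNPUL1 fell by 0.70 ± 0.05. Of 15 SR proteins, the splicing activators among which YTHDC1 partners are known, 5 were higher and 5 lower (median -0.05). TRA2B went from 384 and 373 CPM to 251 and 255 CPM (-0.58 ± 0.04), SRSF6 rose by 0.52 ± 0.06, and SRSF3, a known YTHDC1 partner, at 184 and 184 CPM against 180 and 183 CPM was not called (-0.02 ± 0.05). Of 19 genes of 3′ end cleavage 9 were lower and 4 higher, with the poly(A) polymerase PAPOLA at -0.97 ± 0.05. Of 22 export genes 9 were higher and 5 lower, with THOC7 at 0.73 ± 0.08, DDX39B at -0.54 ± 0.05 and NXF1, the export receptor, at -0.06 ± 0.05, not called. These are totals per gene, and splice forms were not measured.

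Nuclear noncoding RNAs were lower as a list. Of 12 tested 8 were called lower and 2 higher, with a median of -0.46, against 22.7% higher and 16.8% lower among all 1186 tested long noncoding genes. Without heat-shocked control replicate 2, 1 gene of the list was called higher. NEAT1, the scaffold of paraspeckles (ENSG00000245532, chromosome 11, 65422798 to 65445540), went from 465 and 469 CPM to 162 and 168 CPM (-1.50 ± 0.05, edgeR adjusted p = 2.54e-17). MALAT1, of nuclear speckles, went from 297 and 270 CPM to 169 and 148 CPM (-0.84 ± 0.06), and TUG1 fell by 0.51 ± 0.05. The knockdown libraries lay under the controls in each. MIAT, at 315 and 292 CPM against 138 and 83.8 CPM (-1.45 ± 0.27), was called with adjusted p = 0.0211 by edgeR, but not in the fit of the 4 heat-shocked libraries alone (edgeR adjusted p = 0.0656). The genes of the list called higher were GAS5 (0.77 ± 0.06) and KCNQ1OT1 (0.30 ± 0.10). Outside the list, SNHG12, a host gene of small nucleolar RNAs, went from 8.54 and 6.24 CPM to 19.6 and 19.9 CPM (1.42 ± 0.13), and SNHG19 rose by 1.30 ± 0.08.

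Clock genes moved in both directions. Of 18 tested 8 were lower and 4 higher, with a median of -0.10 that was -0.17 without heat-shocked control replicate 2. NR1D1, the repressor REV-ERB alpha, went from 21 and 20 CPM to 5.28 and 6.47 CPM (-1.80 ± 0.13), and its relative NR1D2 fell by 1.11 ± 0.08. The output factors TEF (-1.13 ± 0.11) and DBP (-0.65 ± 0.09) fell, and BMAL1, a target of NR1D1, rose by 0.52 ± 0.08. ID3, a BMP target, stood at 99.8 and 111 CPM against 17.9 and 37.4 CPM (-1.92 ± 0.35). Its knockdown libraries differed widely, and the call was not made in the fit of the 4 heat-shocked libraries (edgeR adjusted p = 0.0627).

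Changes with heat in control cells are given for some of these genes, chosen after their values were seen. The heat comparison and the knockdown comparison share the heat-shocked controls, so their values are only set side by side. TXNIP was at 1.76 with heat and -3.70 in the knockdown, XPC at -1.12 and 1.49, SNHG12 at -1.64 and 1.42, CHST14 at -1.55 and 2.76, and MMP24 at -1.08 and 2.78. XIRP1 was at 1.93 with heat and 2.61 in the knockdown, and PCNA at -1.34 and -1.83.

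Markers of other cell types were looked at beside these results. Of 13 mesenchymal and bone tumour markers 11 were tested, 5 called higher and 4 lower, TWIST1 had 0 counts in all 4 libraries, and their summed level was 5660 and 5750 CPM in the controls and 6470 and 5650 CPM in the knockdown. Of 12 epithelial markers 7 were tested, 5 called higher and 1 lower, with sums of 849 and 871 CPM against 997 and 965 CPM. EPCAM went from 6.23 and 4.66 CPM to 20 and 20.5 CPM, KRT14 from 3.08 and 3.08 CPM to 12.4 and 9.88 CPM and CDH1 from 1.1 and 1.4 CPM to 4.78 and 4.04 CPM, while CLDN3 had 0 counts in all 4 libraries. These 3 genes were chosen after their values were seen. KRT8 went from 400 and 415 CPM to 612 and 587 CPM (0.56 ± 0.05), while KRT18, its keratin partner, fell from 394 and 397 CPM to 301 and 295 CPM (-0.41 ± 0.05). With genes under 5 CPM left out, 3 epithelial markers were called higher and 2 lower. The epithelial markers called higher moved in the same direction as the LAMA3, LAMB3 and integrin alpha6 beta4 genes, and their part in that result was not tested. Of 12 blood and immune markers 2 were tested and 4 had 0 counts in all 4 libraries, CD3E and HBB among them, with sums of 18.9 and 23.3 CPM against 5.89 and 7.52 CPM, led by LCP1 (-1.99 ± 0.14). Most of that difference in the sum was in LCP1, an actin-bundling protein, and 10 of the 12 markers had too few reads to test. Their part in the inflammatory and interferon results was not tested. Of 10 endothelial and nerve markers 7 were tested, 3 called higher and 2 lower, and they summed to 35.9 and 33.3 CPM against 94.2 and 95.9 CPM, led by SYP, synaptophysin, which went from 10.1 and 11.4 CPM to 70.8 and 68.6 CPM (2.70 ± 0.09).

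The share of genes called rose with the number of reads. When tested genes were split into 5 equal groups by mean CPM, 12.9% of the lowest group were called higher and 14.6% lower, against 36.6% and 35.9% of the highest group. Genes at least 2-fold changed were the reverse, with 12.1% higher and 13.5% lower in the lowest group and 1.71% and 2.17% in the highest. By class, protein-coding genes had 30.6% higher and 30% lower. By chromosome, chromosome 19 had 32.8% of its 1164 tested genes higher and 20.7% lower, and chromosome 2 had 22.3% of 1205 higher and 30.3% lower. The 217 tested zinc finger genes of chromosome 19 were at 21.2% and 19.4%. A gene of few reads that was not called need not be unchanged.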

How the data were processed

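RNA-seq of 6 libraries was deposited by the authors as raw read counts per gene, 63187 genes in 1 table; that they are raw is given by the table's title and its whole-number values. Tools named include featureCounts 2.0.2, HISAT2 2.2.1 and Trim Galore 0.6.7, per the submitters' processing notes, which as used here give no roles or settings. The annotation release, strand setting and treatment of reads that fit several positions were not found in the labels, so overlapping genes, antisense genes and near-identical copies are uncertain. Symbols were paired with 42338 genes, and positions and promoters are RefSeq's on GRCh38.p14, which may differ from the annotation counted. No per-sample column was left out.

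The groups were taken from the labels. Counts were tested with edgeR 4.0.16 under R 4.3.3, by its quasi-likelihood test with robust estimation. Libraries were scaled by TMM, and filterByExpr kept genes by a minimum count of 10, with all 6 libraries in 1 fit and 3 residual degrees of freedom. The common biological coefficient of variation was 3.69%. SE is the log2 coefficient divided by the root of F. The chi-square per gene between replicates was 2.69 (controls) and 3.55 (knockdown), above what counting alone gives, and no library was treated as a copy of another. The test was run on simulated data before use. Gene lists are described by counts and medians, with no test of a list. The members and lists were chosen with earlier results of these data known.

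Named genes are YTHDC1, the 15 largest rises and falls among called protein-coding genes of at least 10 CPM, up to 3 called rises and 3 falls of at least 5 CPM in each list, the 6 called genes with the most reads changed at least 2-fold in each direction, all end joining genes and the 4 largest changes of long noncoding genes in each direction. Others named in the text, such as the histone chaperones and the pseudogenes, were chosen after their values were seen. A few genes that the rule names are not reported here. Alternatives were other scalings, filters and fits, DESeq2 1.42.0, limma voom (limma 3.58.1), a replicate block and leaving out each library. Total counts, 13252370 to 15500743 per library, limit what can be seen for genes with few reads.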

Additional observations from a re-analysis of the deposited data

How the results depend on the processing

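With genes under 5 CPM left out, 396 genes were at least 2-fold higher and 456 at least 2-fold lower, against 1058 and 1139, since fewer genes were tested. The other settings kept the counts of called genes within 1.5 times, from 3473 higher and 3494 lower with the DESeq2 Wald test to 4908 higher with library size alone and 4810 lower with no filter. Leaving out 1 library gave between 4038 and 4588 higher and between 4052 and 4615 lower. No sign of a named called gene was reversed in the settings run, and 20 of 311 named genes lost their call in at least 1, among them ID3, MIAT, APLF, NHEJ1, PTGS2 and ISG20. The chemokine median of -0.78 was -0.22 with genes under 5 CPM left out and -1.27 without knockdown replicate 2. The metalloproteinase median of 0.18 was -0.08 with no filter and -0.07 without heat-shocked control replicate 2, and the histone median of 0.85 was 0.38 with no filter and 0.54 without heat-shocked control replicate 2. The cause was not tested. Deviations of same-numbered libraries correlated at 0.055 between control and knockdown over 11574 genes, so little was shared by replicate number. Whether same-numbered libraries were made in pairs is not stated in the labels, and a low correlation cannot show it. With the replicate block 4697 genes were higher and 4675 lower, 1055 and 1132 of them at least 2-fold. Depth limits calls at low CPM.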
